A study of Mus musculus with 12 samples.

Results

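The genes described here encode the kinase relay that runs from Ras to the ribosomal S6 kinases: the Raf kinases Araf and Braf, the Raf-related scaffold Ksr1, the MEK kinases Map2k1 and Map2k2, the ERK kinase Mapk3, and the RSK kinases Rps6ka1 and Rps6ka3. They were taken by name, through the Ensembl mouse identifiers of the deposited table; no measured value enters the rule, although earlier results of these data were known when the set was named. All 8 were found, among 45669 rows, each in a row of its own, and all 8 passed the filter on low counts in every comparison.

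In T cells, engagement of the antigen receptor produces diacylglycerol, which brings the exchange factor Rasgrp1 to the membrane, where it loads Ras with GTP. Ras-GTP recruits Raf kinases, Raf phosphorylates MEK, MEK phosphorylates ERK on a threonine and a tyrosine, and ERK phosphorylates transcription factors, cytoplasmic proteins and RSK. Ksr proteins hold Raf, MEK and ERK together. Signal flow through this relay is set by phosphorylation, which none of the measurements below record; they record how much mRNA of each kinase was present and how much of it was covered by ribosomes.

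CD4+ T cells came from lymph nodes of C57BL6 mice at 12 weeks of age, wild type (WT) or carrying the Anaef allele on both copies of Rasgrp1. Anaef is a germline single-residue substitution in Rasgrp1, so every cell of the animal carries it. Cells were enriched by removing the others with magnetic beads. Total RNA was sequenced from 20000 cells in each of 4 WT libraries (numbered 1 to 4) and 4 Anaef libraries (numbered 5 to 8), with no drug treatment. The remaining cells were combined 2 samples to a pool, which gave pools 1B and 2B from WT mice and pools 3B and 4B from Anaef mice. Pools were treated with cycloheximide for 1 minute and digested with micrococcal nuclease to leave ribosome-protected fragments (RPF), the pieces of mRNA lying inside ribosomes. The labels do not say which animals entered which pool, so the p-values speak only of the spread among these libraries.

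Libraries held 15326842 to 40046317 counts in total RNA and 2868943 to 7009342 in RPF, and the 8 kinase genes took 0.0405% to 0.0730% of them, 1530 to 28083 counts per library. Mitochondrial transcripts took 16.4% to 27.8% of total RNA counts, the most in WT 3, which was also the shallowest. The 6 CD4 T cell markers were present in every group. They summed to 2323 to 2621 CPM (counts scaled to a common library total) in WT and 2549 to 4226 CPM in Anaef total RNA, and in RPF to 4141 to 4606 CPM in WT and 4755 to 4798 CPM in Anaef, where both Anaef pools lay above both WT pools. By their sums, plasma cell markers lay lower in Anaef in both assays, B cell markers in RPF and myeloid markers in total RNA. The 5 plasma cell markers summed to 1155 to 5240 CPM in WT and 333 to 737 CPM in Anaef total RNA, and to 11180 to 22270 and 2256 to 6637 CPM in RPF. The 7 B cell markers summed to 28.2 to 63.0 and 10.9 to 30.9 CPM in total RNA, where the groups overlapped, and to 46.6 to 86.8 and 21.2 to 35.2 CPM in RPF. The 5 myeloid markers summed to 19.5 to 24.4 and 12.3 to 16.1 CPM in total RNA, and to 30.4 to 44.3 and 17.8 to 34.2 CPM in RPF, where they overlapped. Most of the total RNA sum was Itgam (13.9 to 17.2 and 7.75 to 11.55 CPM). Mpeg1 also lay lower there, while Lyz2, Csf1r and Cd68 overlapped between genotypes. No marker of these 4 lists was at 0 throughout a group, and the part of such cells in the results below was not tested. In WT and Anaef total RNA the 2 CD8 T cell markers summed to 6.97 to 12.3 and 5.33 to 15.3 CPM, the 3 NK cell markers to 5.25 to 7.99 and 0.792 to 6.89 CPM, and the 4 endothelial and stromal markers to 10.05 to 14.7 and 12.15 to 17.7 CPM. Most of the endothelial and stromal sum was Vwf (9.41 to 14.4 and 12.15 to 17.7 CPM), which was at 0 in every RPF pool. Cdh5 was at 0 in Anaef total RNA. In RPF these markers summed to 0.295 to 0.971 CPM in WT and 0.287 to 0.698 CPM in Anaef. The 3 erythroid markers summed to at most 3.80 CPM in total RNA, where Hba-a1 and Hbb-bs were at 0 in Anaef, and to 7.53 to 10.8 CPM in WT and 1.72 to 5.58 CPM in Anaef RPF. Rasgrp1 mRNA stood at 503 ± 72.1 CPM in the WT and 581.6 ± 92.9 CPM in the Anaef libraries (SD, n = 4 each), and because Anaef leaves the transcript in place this level does not check the labels. In RPF it was 161 ± 16.4 and 114 ± 13.6 CPM (n = 2 each), with both Anaef pools below both WT pools (log2 fold change -0.50, SE 0.16, edgeR adjusted p = 0.363).

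Several members are close relatives, so the stretches by which reads tell them apart are shown first. The activation segment of MEK carries the serines that Raf phosphorylates, and that of ERK carries the threonine and tyrosine that MEK phosphorylates. Below, the coding strand is given for that stretch of each gene in GRCm38, read from GENCODE M21 transcripts, with the codons of the phosphorylated residues in capitals. They are codons 218 and 222 of Map2k1 (exon 6, chr9:64193714-64193758, minus strand), 222 and 226 of Map2k2 (exon 6, chr10:81119325-81119369, plus strand) and 203 and 205 of Mapk3 (exon 4, chr7:126763443-126763481, plus strand).
Map2k1: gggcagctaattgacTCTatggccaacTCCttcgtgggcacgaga
Map2k2: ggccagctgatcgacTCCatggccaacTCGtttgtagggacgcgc
Mapk3: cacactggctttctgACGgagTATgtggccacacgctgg

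Over these 45 bases the MEK genes matched at 35 and differed at 10, so a footprint read here can be assigned to 1 of them. Over the aligned coding sequences 79.1% of bases were identical in the MEK pair, 71.8% in the RSK pair and 69.5% in the Raf pair. The longest run without a difference was 56 bases in the MEK pair, 38 in the RSK pair and 17 in the Raf pair. The MEK run crosses from exon 3 into exon 4 and is shown because it is the longest stretch where a read cannot be assigned to either MEK gene.
Map2k1 and Map2k2: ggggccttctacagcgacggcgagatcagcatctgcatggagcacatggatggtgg

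Windows of 28 bases, about the length of a footprint, that also occur in a transcript of another gene made up 3.64% of the Map2k1 and 3.56% of the Map2k2 coding sequence, in each case shared with the other MEK gene. For Mapk3 the share was 8.87%, with matches to Mapk15 and predicted genes, and for Rps6ka1 it was 4.91%, with matches to Rps6ka2, Rps6ka3 and a predicted gene. It was 5.28% for Ksr1, 5.07% for Braf, 0.501% for Rps6ka3 and 0% for Araf. For windows of 50 bases along whole transcripts, the read length of the total RNA libraries, no member exceeded 2.33%. The sources used here do not give how the authors' counting treated reads with several matches.

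The genotype comparison in total RNA asks whether cells with mutant Rasgrp1 hold more or less mRNA of the kinases below it. Values are CPM on library sizes scaled by TMM, and the log2 fold changes of Anaef over WT come from edgeR's quasi-likelihood test with Benjamini-Hochberg adjustment over all genes tested. None of the 8 kinase genes passed (0 by edgeR and 0 by DESeq2), where 4 of 17876 genes, 0.0224%, passed by edgeR and 120 by DESeq2. No member had an unadjusted p under 0.05, against 1004 genes. For every member the Anaef libraries overlapped the WT libraries. Complete separation was seen in 2.01% of genes with Anaef below WT and in 1.58% with Anaef above.

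**Figure D1:**
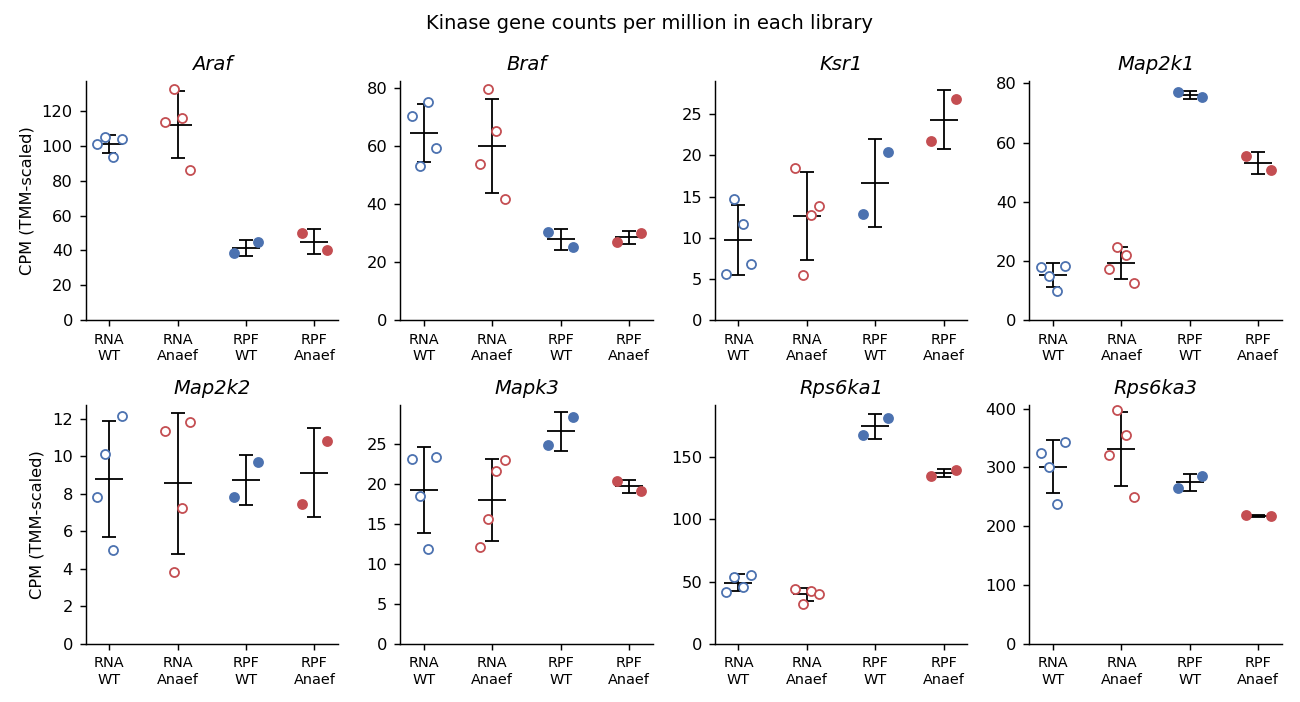
CPM (TMM-scaled, linear axis from 0) of the 8 kinase genes in each library; open circles are total RNA, filled circles RPF, blue WT and red Anaef, and black bars give mean ± SD. Total RNA groups overlap for every gene, while in RPF both Anaef pools lie below both WT pools for Map2k1, Mapk3, Rps6ka1 and Rps6ka3 and above them for Ksr1.

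Among the Raf kinases, mRNA of Araf (ENSMUSG00000001127, chrX:20797814-20860519) was even across WT, at 102, 105, 93.6 and 104 CPM, and more spread in Anaef, at 114, 133, 117 and 86.2 CPM. Anaef 8 lay below every WT library and the other Anaef libraries above. The log2 fold change was 0.15 (SE 0.15, adjusted p = 0.975). Braf (ENSMUSG00000002413, chr6:39603237-39725463), the Raf kinase with the strongest catalytic activity, was at 70.2, 53.1, 74.99 and 59.4 CPM in WT and 53.7, 79.6, 65.1 and 41.6 CPM in Anaef. Its groups covered much the same range, and the log2 fold change was -0.10 (SE 0.21, adjusted p = 0.989). Ksr1 (ENSMUSG00000018334, chr11:79013440-79146407) varied about as much within each group as between them, at 5.57, 14.7, 11.7 and 6.81 CPM in WT and 18.4, 5.44, 12.8 and 13.9 CPM in Anaef (log2 fold change 0.38, SE 0.42, adjusted p = 0.979).

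The mRNA of Map2k1 (ENSMUSG00000004936, chr9:64185770-64253631), which encodes MEK1, was at 17.9, 14.7, 9.89 and 18.4 CPM in WT and 17.3, 24.8, 22.1 and 12.7 CPM in Anaef. The lowest library was WT 3 and the highest Anaef 6. The log2 fold change was 0.33 (SE 0.28, 95% interval -0.29 to 0.95, adjusted p = 0.953). Map2k2 (ENSMUSG00000035027, chr10:81105915-81133975), which encodes MEK2, was at 7.83, 10.1, 4.98 and 12.2 CPM in WT and 11.4, 3.82, 7.24 and 11.8 CPM in Anaef. Its lowest library was Anaef 6, the library in which Map2k1 was highest, and the fold change was -0.04 (SE 0.40, adjusted p = 0.994).

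Mapk3 (ENSMUSG00000063065, chr7:126759601-126765819), which encodes ERK1, was at 23.2, 18.5, 11.9 and 23.5 CPM in WT and 12.1, 15.6, 21.6 and 23.0 CPM in Anaef, with both groups spanning the same range (log2 fold change -0.09, SE 0.29, adjusted p = 0.989). Rps6ka1 (ENSMUSG00000003644, chr4:133847290-133887797), which encodes RSK1, was at 41.3, 53.6, 45.6 and 55.5 CPM in WT and 44.3, 32.1, 42.6 and 40.0 CPM in Anaef. Of the 8 it came nearest to separation: 2 Anaef libraries exceeded the lowest WT library and none reached the others (log2 fold change -0.30, SE 0.17, 95% interval -0.68 to 0.08, adjusted p = 0.915). Rps6ka3 (ENSMUSG00000031309, chrX:159210307-159368244), which encodes RSK2 and drew the most counts of the set, was at 324, 300.5, 239 and 343 CPM in WT and 321, 398, 356 and 249 CPM in Anaef. WT 3 and Anaef 8 were its low libraries, and the fold change was 0.13 (SE 0.17, adjusted p = 0.985). Over the 8 genes the median log2 fold change was 0.05, with 4 above and 4 below 0, beside a median of 0.01 over all genes tested. The intervals set the resolution: the Araf estimate excluded changes above 0.49, whereas that of Ksr1 reached 1.30.

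The RPF comparison asks whether ribosomes covered these mRNAs differently. Here 4 of the 8, Map2k1, Mapk3, Rps6ka1 and Rps6ka3, had both Anaef pools below both WT pools, and 1, Ksr1, had both above. With 2 pools against 2 such separation is common: 22.5% of the 9710 genes tested lay below and 22.3% above. No member passed (0 by edgeR and 0 by DESeq2), and neither did any other gene by edgeR (0 genes, 0.0%), while 1151 genes, 11.9%, had an unadjusted p under 0.05 and DESeq2 called 197. Of the members, Map2k1, Rps6ka1 and Rps6ka3 had an unadjusted p under 0.05, all lower in Anaef, as were 6.93% of all genes tested.

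Map2k1 footprints were at 77.1 and 75.3 CPM in the WT pools and 55.6 and 50.6 CPM in the Anaef pools. The pools of a genotype lay close together and the gap between genotypes was several times their distance. The log2 fold change was -0.52 (SE 0.16, 95% interval -0.91 to -0.13, adjusted p = 0.347). For Rps6ka1 the WT pools gave 168 and 182 CPM and the Anaef pools 135 and 139.6 CPM (log2 fold change -0.35, SE 0.14, adjusted p = 0.411). For Rps6ka3 they gave 264 and 285 CPM against 219 and 217 CPM (log2 fold change -0.33, SE 0.13, adjusted p = 0.403). Both RSK genes thus lay lower in the Anaef pools by nearly the same proportion.

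Mapk3 was at 25.0 and 28.4 CPM in WT and 20.4 and 19.2 CPM in Anaef (log2 fold change -0.43, SE 0.20, 95% interval -0.91 to 0.06, adjusted p = 0.457). Ksr1 went the other way, from 12.8 and 20.4 CPM to 21.8 and 26.9 CPM (0.57, SE 0.29, adjusted p = 0.480), with WT 2B close to Anaef 3B. Without WT 2B the Ksr1 estimate was 0.91 and without WT 1B it was 0.24. The remaining genes overlapped between genotypes. Araf was at 38.4 and 44.9 CPM in WT and 50.2 and 40.1 CPM in Anaef, Braf at 30.4 and 25.3 and at 27.0 and 30.0 CPM, and Map2k2, the thinnest at 26 to 53 counts per pool, at 7.83 and 9.71 and at 7.46 and 10.8 CPM. Their log2 fold changes were 0.12, 0.03 and 0.06 (adjusted p = 0.851, 0.973 and 0.967).

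In the same pools the summed footprints of plasma cell and B cell markers were lower and those of CD4 T cell markers higher in Anaef, by the sums given above. Of the CD4 T cell markers, Cd4, Cd3e and Cd28 lay higher in both Anaef pools, while Cd3d, Cd3g and Lck overlapped between genotypes. Depth was lower in Anaef RPF (2868943 and 3464868 counts) than in WT RPF (4044330 and 7009342). The part of any of these in the lower Map2k1, Mapk3, Rps6ka1 and Rps6ka3 footprints was not tested. In such bulk samples fewer cells of a type and less RNA per cell cannot be told apart.

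**Figure D2:**
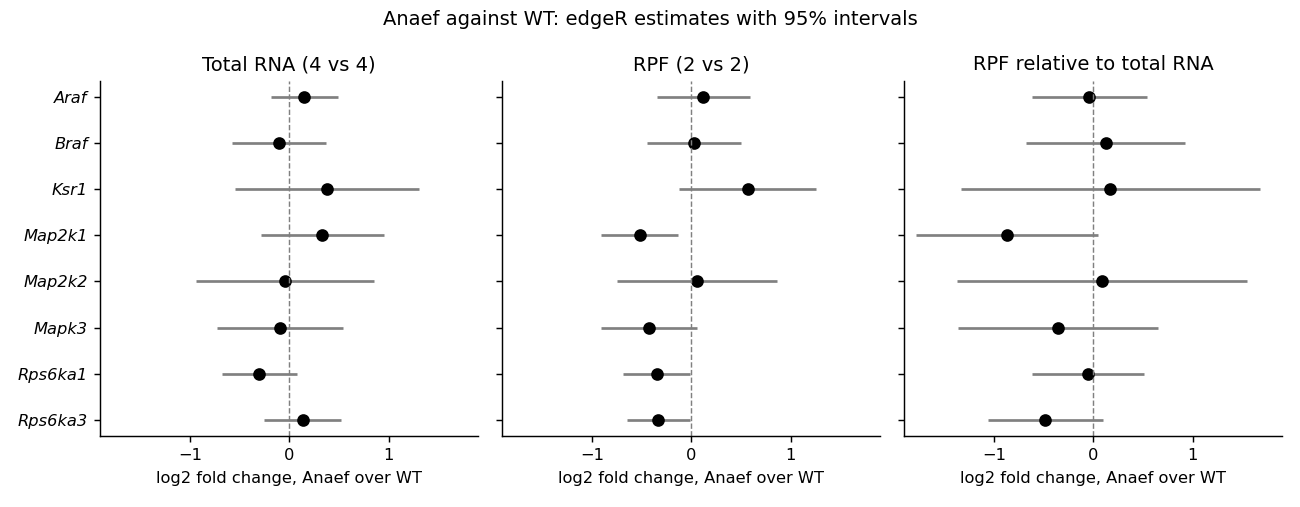
log2 fold change of Anaef over WT for each kinase gene in total RNA, in RPF, and in RPF relative to total RNA; points are edgeR estimates and lines their 95% intervals, with the dashed line at 0. Every total RNA interval includes 0; the RPF intervals of Map2k1, Rps6ka1 and Rps6ka3 lie below 0 before adjustment over all genes; the interval of Map2k1 in RPF relative to total RNA runs from -1.78 to 0.05.

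Whether ribosome coverage per mRNA differed was asked by testing RPF relative to total RNA between genotypes in 1 model over the 12 libraries. No member passed, nor did any of 19031 genes by edgeR (0 genes, 0.0%), while 636 had an unadjusted p under 0.05 and DESeq2 called 10. Map2k1 had the difference farthest from 0 of the 8, at -0.86 on the log2 scale (SE 0.42, 95% interval -1.78 to 0.05, adjusted p = 1), its total RNA estimate lying above 0 and its RPF estimate below. Rps6ka3 followed at -0.48 (SE 0.27, 95% interval -1.06 to 0.10), again with RNA above and RPF below 0. For Rps6ka1 the RPF and total RNA estimates both lay below 0, neither of them passing, and the difference was -0.06 (SE 0.26, 95% interval -0.62 to 0.50). Mapk3 was at -0.35 (SE 0.46), Araf at -0.04 (SE 0.27), Braf at 0.12 (SE 0.37), Ksr1 at 0.17 (SE 0.69) and Map2k2 at 0.08 (SE 0.67), each with an adjusted p of 1. The intervals of Ksr1 (-1.33 to 1.67) and Map2k2 (-1.37 to 1.54) left room for sizeable differences in either direction.

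Levels of different genes were compared per kilobase, with total RNA divided by exon length and RPF by coding length, both scaled to a common total within a library. In WT total RNA, Rps6ka3 stood at 50.5 ± 17.2 (SD, n = 4), above 97.0% of the 14658 protein-coding genes detected, and Araf at 21.2 ± 5.94, above 91.1%. Then came Rps6ka1 at 15.8 ± 5.02, Mapk3 at 12.1 ± 5.18, Map2k1 at 6.36 ± 2.62, Braf at 6.18 ± 1.18, Map2k2 at 2.22 ± 1.09 and Ksr1 at 1.83 ± 0.957, the last at the percentile of 45.2. Within each of the 8 total RNA libraries Rps6ka3 ranked first and Araf second, although the WT ranges of these neighbours overlapped across libraries. Of neighbours in this order, only Braf and Map2k2 had ranges that did not overlap in WT. The means of Map2k1 and Braf had a ratio of 1.03, but within libraries Map2k1 was the higher in 7 of 8 by exon length and Braf in 8 of 8 by coding length (39.0 ± 5.28 against 20.7 ± 7.59 in WT), so their order depended on the length used.

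The first place depended on the length used. Araf has short principal transcripts (2358 bases) within 6541 bases of annotated exons, and per kilobase of principal transcript, a length chosen after seeing the data, Araf was at 58.9 ± 16.5 and Rps6ka3 at 58.0 ± 19.8 in WT. Araf was then the higher of the pair in 6 of 8 libraries. Braf moved too: with coding length for total RNA it ranked between 3 and 4 in the 8 libraries, and with exon length between 4 and 6.

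Footprints gave another order. In WT RPF Rps6ka3 was at 109.7 ± 13.3 per coding kilobase (SD, n = 2), Rps6ka1 at 65.7 ± 8.19, Map2k1 at 60.7 ± 3.15, Mapk3 at 20.6 ± 3.29, Araf at 19.6 ± 3.51, Braf at 10.3 ± 0.646, Ksr1 at 5.39 ± 2.08 and Map2k2 at 5.37 ± 1.18. Rps6ka3, Rps6ka1 and Map2k1 held ranks 1, 2 and 3 in all 4 RPF libraries, so the leading order was the same in both genotypes. Map2k1 and Rps6ka1 overlapped in the WT pools, as did Mapk3 and Araf, and Ksr1 and Map2k2. Map2k1 moved from rank 5 of 8 in WT total RNA to rank 3 in RPF, and Araf from rank 2 to rank 5.

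**Figure D3:**
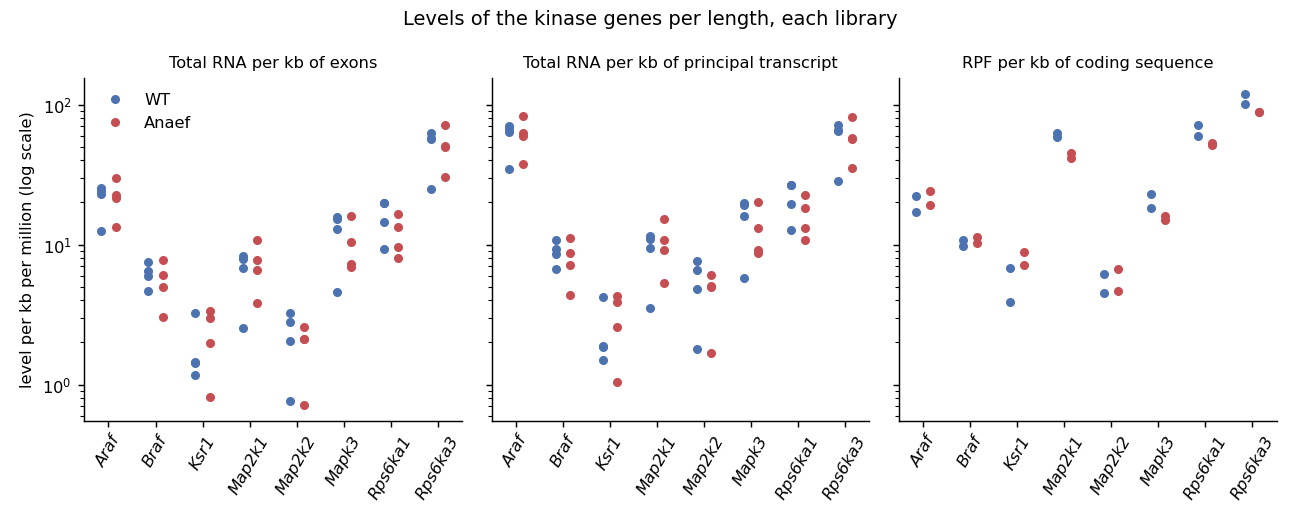
Level of each kinase gene per kilobase in every library, scaled as in the text (log axis; blue WT, red Anaef), with total RNA per exon length, total RNA per principal transcript length, and RPF per coding length. Rps6ka3 leads in RPF and per exon length, Araf lies close to it per principal transcript length, and Map2k1 stands well above Map2k2 in RPF.

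RPF relative to total RNA within a genotype was tested in 6 libraries of each. This comparison differs by library kit and by the counted region as well as by ribosome coverage, and most genes passed: 74.0% of 17775 in WT (3485 higher and 9672 lower in RPF) and 67.1% of 18032 in Anaef (2953 higher and 9153 lower). With nuclear protein-coding genes only, the split was 3243 higher and 4497 lower in WT and 2588 and 4129 in Anaef. Against that background 5 of the 8 members passed in WT and 4 in Anaef, beside 65.7% and 57.8% of nuclear protein-coding genes. Rps6ka1 was higher in RPF and Araf, Braf and Rps6ka3 lower in both genotypes, and Map2k1 was higher in WT. Higher and lower are relative to 0, whereas the median log2 ratio over all genes tested was -1.62 in WT and -1.79 in Anaef.

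Map2k1 had a log2 ratio of 1.60 in WT (SE 0.26, adjusted p = 0.000832), above 84.7% of the 11896 protein-coding genes tested, whose median was -0.36. In Anaef it was 0.72 (SE 0.32, adjusted p = 0.0746), above 71.5% of coding genes. DESeq2 called it there at 0.84 (adjusted p = 0.0236), as did RLE size factors at 0.84 (0.0425) and the fit without Anaef 6 at 0.84 (0.0375). The difference between the genotypes was the -0.86 of the model over 12 libraries, which did not pass. Rps6ka1 was at 1.12 in WT (SE 0.17, adjusted p = 0.000706) and 1.04 in Anaef (SE 0.20, adjusted p = 0.00222).

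The Raf kinases lay at the other end. Araf was at -2.00 in WT (SE 0.17, adjusted p = 3.23e-05) and -2.06 in Anaef (SE 0.25, adjusted p = 0.000183), and Braf at -1.92 (SE 0.23, adjusted p = 0.000185) and -1.83 (SE 0.31, adjusted p = 0.00114). Rps6ka3 was at -0.85 in WT (SE 0.18, adjusted p = 0.00330) and -1.35 in Anaef (SE 0.23, adjusted p = 0.00101), above 41.65% and 35.98% of coding genes. Ksr1 (0.05 and 0.20), Map2k2 (-0.73 and -0.66) and Mapk3 (-0.25 and -0.62) did not pass in either genotype, and without WT 3 the Map2k2 ratio in WT passed at -0.91 (adjusted p = 0.0184).

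Reads from untranslated regions count in total RNA and hardly in RPF. The coding share of annotated exon length differed among the members, from 18.2% in Braf, 27.2% in Map2k2, 28.3% in Rps6ka3, 30.6% in Araf, 34.8% in Map2k1 and 41.3% in Ksr1 to 54.1% in Mapk3 and 58.8% in Rps6ka1. Both lengths are unions over a gene's transcripts, so these are not shares of a single mRNA. The principal transcript of Araf has 1815 coding bases of 2358, and that of Map2k2 has 1206 of 2405. With both assays put per length, the WT log2 ratio was -0.11 for Araf, 0.74 for Braf, 0.76 for Mapk3, 1.12 for Rps6ka3, 1.27 for Map2k2, 1.56 for Ksr1, 2.06 for Rps6ka1 and 3.25 for Map2k1. Braf was thus near the Araf value as counted and apart from it by this length. The 2 assays are divided by different lengths, and no median over all genes is given for these ratios. Their signs therefore do not place a gene above or below most genes. In WT, Rps6ka3 stood above 97.0% of coding genes in total RNA and 90.8% in RPF, and Map2k1 above 70.4% and 84.7%. Coding length for both assays cancels within a gene's ratio. It therefore repeats the counted ratios but for scaling (-1.92 for Braf and -2.01 for Araf) and is no separate check. Araf had the lowest and Map2k1 the highest WT ratio as counted, by exon length and by principal transcript length (-1.58 and 2.78). In Anaef, Map2k1 was the highest by exon length (2.58) and principal transcript length (2.10), and Rps6ka1 as counted (1.04, with Map2k1 at 0.72).

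**Figure D4:**
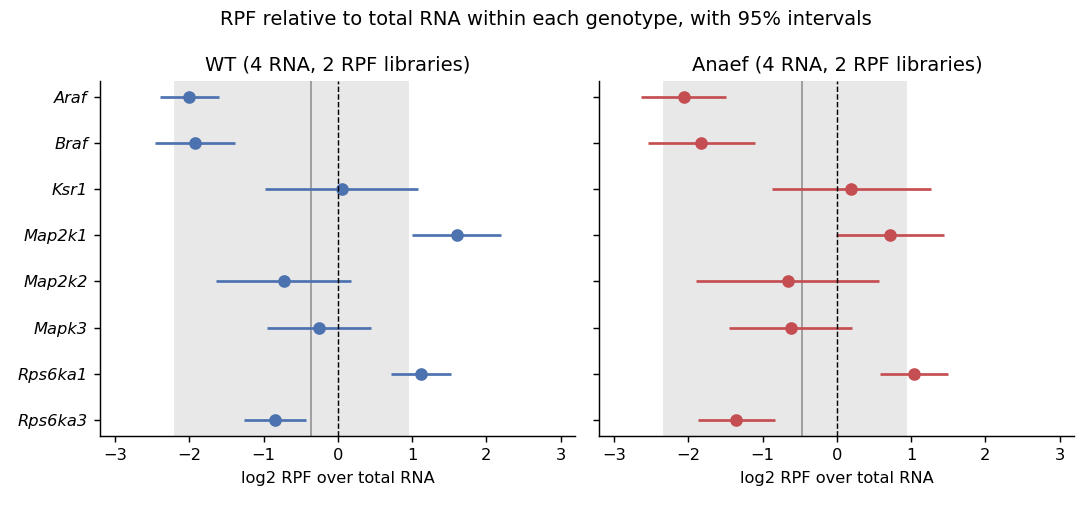
log2 ratio of RPF to total RNA (edgeR, not per length) for each kinase gene in WT (blue) and Anaef (red), with 95% intervals; the grey band spans the middle quartiles of protein-coding genes, the grey line is their median and the dashed line is 0. Map2k1 (1.60) and Rps6ka1 (1.12) lie above the band in WT, Araf and Braf near its lower edge, and in Anaef Map2k1 (0.72) falls within the band.

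Members of a pair did not contribute equally. Map2k1 made up 79.3%, 70.8%, 76.8% and 71.6% of the MEK pair in the WT total RNA libraries and 71.8%, 91.6%, 83.6% and 64.2% in Anaef, per exon length. In RPF, per coding length, it made up 92.8% and 91.0% in WT and 90.7% and 85.9% in Anaef. Map2k1 was thus the larger of the pair in all 12 libraries, and in WT its share of footprints lay above its share of RNA in every library. In Anaef the ranges overlapped, with the RNA share of Anaef 6 above both RPF shares. With principal transcript length the share in WT RNA was 63.6% ± 5.02, still below the RPF shares.

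Rps6ka1 took 20.0%, 25.9%, 27.2% and 24.0% of the RSK pair in the WT total RNA libraries and 21.3%, 13.6%, 19.0% and 23.9% in those of Anaef. Of RSK footprints it took 37.4% and 37.5% in the WT pools and 36.7% and 37.8% in the Anaef pools. All 4 RPF shares lay above all 8 total RNA shares, which also held with coding length (at most 15.3%) and principal transcript length (at most 30.6%) for RNA. The RSK split in footprints was the same to within about 1 percentage point in both genotypes. Araf took 72.6% to 80.8% of the pair with Braf in WT total RNA and 78.0% to 81.8% in Anaef, and in RPF 61.5% and 69.2% in WT and 70.2% and 62.8% in Anaef. By coding length for RNA its share was 66.6% ± 4.57 in WT, a range overlapping that of RPF, so the lower Araf share in RPF depended on the length used.

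**Figure D5:**
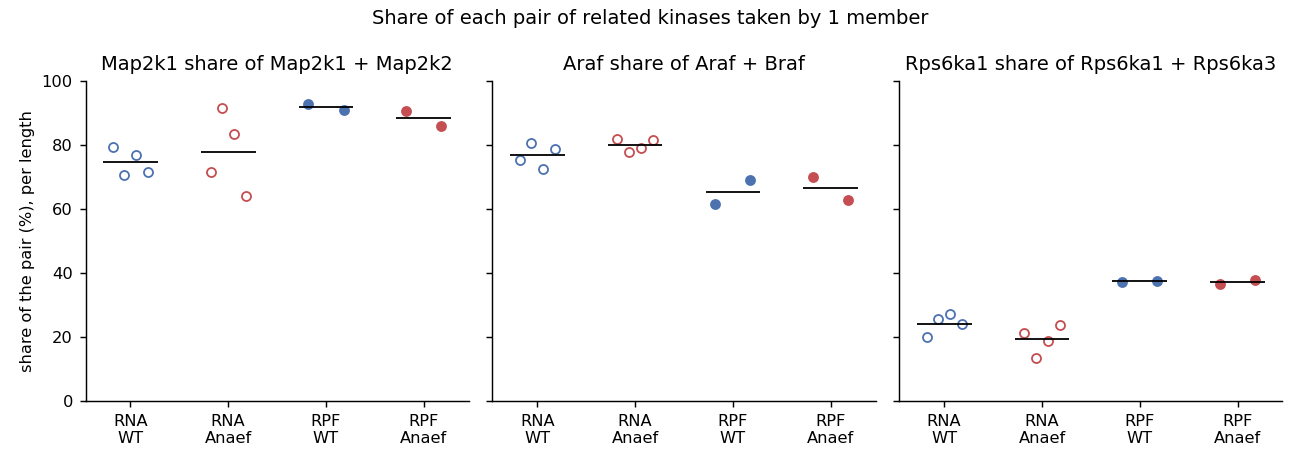
Share (%) of Map2k1 within the MEK pair, Araf within the pair with Braf, and Rps6ka1 within the RSK pair in each library, per exon length in total RNA (open) and per coding length in RPF (filled); blue is WT, red Anaef and black lines are means. Map2k1 lies above 64% throughout, and the 4 RPF values of Rps6ka1 fall between 36.7% and 37.8%, above every total RNA value.

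The other genes of the pathway were taken as 4 lists. Of 13 further kinases of the cascade (among them the MAP kinase-interacting kinases), 11 were tested in total RNA and 10 in RPF, and none passed between genotypes (0 by edgeR in each). In RPF 7 of the 10 lay below 0, with a median log2 fold change of -0.20 beside 0.01 over all genes. An unadjusted p under 0.05 was found for 2, both lower, beside 6.93% of all genes tested that were lower at that threshold. Among them was Mknk2, a kinase of the cap-binding factor eIF4E, at 80.8 ± 15.9 CPM in WT pools and 48.0 ± 2.26 CPM in Anaef pools (SD, n = 2 each; log2 fold change -0.75, SE 0.20, adjusted p = 0.344). Mknk1 was at 0.51 in RNA (SE 0.23) and -0.52 in RPF (SE 0.25), and Rps6ka5, a kinase of histones and CREB, at -0.71 in RNA (SE 0.58).

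Of 26 scaffolds, chaperones and phosphatases, 24 and 23 were tested and none passed (0 in either assay), with medians of -0.06 in total RNA and -0.14 in RPF. Of all genes tested in RPF, 6.93% were lower with an unadjusted p under 0.05. In RPF 3 had an unadjusted p under 0.05, all lower: Ppp1cb (-0.54, SE 0.15) and Ppp1ca (-0.48, SE 0.14), catalytic subunits of the phosphatase that strips the inhibitory phosphate from Raf, and the 14-3-3 protein Sfn (-1.18, SE 0.45). In total RNA 2 did, both higher, where 5.62% of all genes tested did in either direction. They were Pebp1, an inhibitor of Raf (0.51, SE 0.20, edgeR adjusted p = 0.84), and Ywhaz, a 14-3-3 protein (0.38, SE 0.17, edgeR adjusted p = 0.87). For both genes the Anaef and WT libraries overlapped. The chaperone Hsp90ab1 was at -0.20 in total RNA (SE 0.12), with every Anaef library below every WT library, as in 2.01% of all genes tested.

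The 12 substrates of ERK or RSK were all tested and none passed (0 in either assay). In RPF 8 lay below 0, with a median of -0.26. An unadjusted p under 0.05 was found for 3, all lower, beside 6.93% of all genes tested. Ets1, a transcription factor of lymphocytes, was at 1563 ± 46.9 CPM in WT pools and 949.9 ± 30.3 CPM in Anaef pools (n = 2 each; log2 fold change -0.72, SE 0.13, adjusted p = 0.344), Gsk3b was at -0.77 (SE 0.17) and Elk4, a partner of serum response factor, at -0.57 (SE 0.21). In total RNA the smallest p-values were those of Ets2 (-0.53, SE 0.24), Gsk3b (0.40, SE 0.20) and Elk4 (-0.20, SE 0.13).

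Kinases of the parallel p38 and JNK cascades served for comparison. Of 13 listed, 11 were matched, 10 tested in total RNA and 9 in RPF, and none passed (0 in either assay). In RPF 6 of 9 lay below 0, with a median of -0.58. An unadjusted p under 0.05 was found for 4, all lower, beside 6.93% of all genes tested. Mapk14, the p38 alpha kinase, was at 80.4 ± 6.15 CPM in WT pools and 40.4 ± 12.2 CPM in Anaef pools (n = 2 each; -0.99, SE 0.24, adjusted p = 0.344), Mapk8 at -1.01 (SE 0.31) and Mapk9 at -0.82 (SE 0.28), both JNK kinases. In total RNA Mapk14 was at 0.61 (SE 0.29), Mapk9 at 0.27 (SE 0.16) and Map2k3 at 0.55 (SE 0.38). Lower footprints in the Anaef pools were thus seen for Mapk14, Mapk8 and Mapk9 as well as for Map2k1, Mapk3, Rps6ka1 and Rps6ka3. The genes of the parallel cascades were named for the smallest p of their list, and whether the lists differ was not tested.

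Across the 8 total RNA libraries, which share a kit and differ in depth, Map2k1 and Rps6ka3 followed each other closely (Pearson r = 0.98 on log2 CPM, Spearman rho = 1.0, n = 8), and Araf went with both (r = 0.90 with Rps6ka3 and 0.85 with Map2k1). Map2k2 did not follow Map2k1 (r = -0.18) and ran against Braf (r = -0.84). Among 6470 protein-coding genes of at least 10 CPM, the pattern most like that of Map2k1 belonged to Urb2 (r = 0.98) and that most like Rps6ka3 to Zbed4 (r = 0.99). The closest were Mccc1 for Araf (0.96), Zfp799 for Braf (0.95), Mrpl21 for Ksr1 (0.93), Fchsd2 for Map2k2 (0.97), Cdca4 for Mapk3 (0.96) and Tulp4 for Rps6ka1 (0.96). For Map2k1, 72 genes had an r above 0.9 and for Ksr1 5 did. These are descriptions over 8 libraries, in which WT 3, the shallowest, was the lowest WT library for Araf, Map2k1, Map2k2, Mapk3 and Rps6ka3 at once and the highest for Braf.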

How the data were processed

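The authors deposited 1 table of read counts by gene, not normalized, holding 8 total RNA and 4 masked RPF columns, per the file headers and labels. TopHat 1.4.1 and the build GRCm38 are listed in the submitters' processing notes. The sources used here do not give the counting tool, annotation, strand setting or mask. Of 45669 rows, 44595 matched GENCODE M21, 263 joined several identifiers and 811 had no match.

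Tests used edgeR 4.0.16 (R 4.3.3, filterByExpr, TMM, quasi-likelihood F test, Benjamini-Hochberg threshold 0.05) on the 8 total RNA libraries, the 4 RPF libraries, all 12 with the interaction of genotype and assay, and the 6 of each genotype. SEs come from the F statistic; intervals are 95%. log2 CPM used a prior count of 2. Exon and coding lengths are unions over a gene's transcripts. The fits were also run on simulated counts with known changes, and the outcome is not given here. As alternatives, the fits were repeated with RLE size factors, DESeq2 1.42.0, no filter, nuclear protein-coding genes, a fit on 12 libraries, each library left out, and other lengths; principal transcript length, and coding length for shares, were chosen after seeing the data. All 8 members were named; of each list, up to 3 genes with the smallest p per assay (some that this rule names are left out of the text); and for each member the gene most alike over total RNA libraries. Members and lists were chosen with earlier results of these data known.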

Additional observations from a re-analysis of the deposited data

How the results depend on the processing

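Under each alternative run for it, the count of members that passed stayed within 1.5 times its value in all 5 comparisons (0 in the genotype comparisons throughout). Counts over all genes moved. DESeq2 called 120 genes in total RNA, 197 in RPF and 10 for RPF relative to total RNA between genotypes. Nuclear protein-coding genes only gave 0 in total RNA, 6 in RPF, and 7740 in WT and 6717 in Anaef for RPF relative to total RNA, with fewer genes tested. Without a filter 514 passed in RPF. Leaving out 1 library gave 0 to 3 genes in total RNA, 0 to 211 in RPF (211 without Anaef 3B, 14 without 4B, 1 without WT 2B) and 0 to 1 between genotypes relative to RNA. Beyond the number of genes or libraries in each fit, the cause was not tested.

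Signs that turned belonged to estimates near 0 that did not pass. In total RNA, leaving out 1 library moved Braf between -0.27 and 0.039, Map2k2 between -0.24 and 0.20 and Mapk3 between -0.26 and 0.063. In RPF the ranges were -0.051 to 0.27 for Araf, -0.10 to 0.16 for Braf and -0.23 to 0.31 for Map2k2. Relative to RNA between genotypes they were -0.23 to 0.084 for Araf (0.0011 by DESeq2), -0.017 to 0.27 for Braf, -0.16 to 0.52 for Ksr1 and -0.22 to 0.32 for Map2k2, and within genotypes -0.32 to 0.35 (WT) and -0.073 to 0.42 (Anaef) for Ksr1. Over all alternatives the lower RPF of Map2k1 ran from -0.59 to -0.46, with an adjusted p of at least 0.160. RLE size factors moved the median over all genes from -1.79 to -1.67 for RPF over total RNA in Anaef, and Map2k1 from 0.72 to 0.84 with it. No paired analysis was possible because the labels share no replicate number between groups and do not say which animals entered which pool. RPF depth limits Map2k2 most, at 26 to 53 counts per pool.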
